A study of Canis lupus familiaris with 30 samples.

Results

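Lymph node aspirates of 15 dogs with lymphoma were sequenced at 6 weeks into CHOP chemotherapy and at the initial timepoint, and the 15 six-week libraries were compared with the 15 initial libraries as 15 pairs. These are all 30 libraries of the series. CHOP combines cyclophosphamide, doxorubicin, vincristine and prednisone. The six-week group received CHOP, and the initial group was sampled before CHOP, although dogs that had been given 1 injection of prednisone were admitted. The dogs were client patients of no set breed or age, and their immunophenotype labels were B-Cell for 7 dogs, T-Cell for 3 and Unknown for 5. The number in a library name gave the pairs, except that 031A was put with 032B, the libraries left over at each timepoint. Expression was measured as FPKM, the fragment number scaled by transcript length and by the number of mapped fragments, and analysed as log2(FPKM+1). Of 32704 gene IDs, 14257 had a mean FPKM above 1 over the 30 libraries and were tested.

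Doxorubicin traps topoisomerase II on DNA and vincristine blocks the mitotic spindle, so both act on dividing cells, while cyclophosphamide crosslinks DNA. Prednisone acts through the glucocorticoid receptor and kills lymphoid cells. A fine needle aspirate of a lymph node holds tumour cells together with normal T cells, B cells, macrophages and vessel cells. In such bulk RNA, fewer cells of a type and less RNA per cell cannot be told apart.

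Library depth and a few labels bear on all comparisons. Total counts were 4318394 to 22952193 (median 13153569) in the six-week libraries and 10047845 to 43413353 (median 19045310) in the initial libraries, and were lower at 6 weeks in 12 of 15 dogs (adjusted p = 0.00530, exact permutation test of the paired log2 ratios, 7 library measures compared). The 8 tested genes shared by all leukocytes summed to 618 to 1467 FPKM in six-week libraries and 839 to 1388 FPKM in initial libraries, as a lymph node sample would hold. The medians of B-cell and T-cell markers were in the opposite order to the immunophenotype label at both timepoints in dogs 029 and 038 and at 6 weeks in dog 034. Dog 038, labelled T-Cell, had a median of 4.49 over 4 B-cell genes and 3.74 over 13 T-cell genes at 6 weeks on the log2(FPKM+1) scale, and 5.72 and 2.35 initially. Dog 029, labelled B-Cell, had medians of 5.67 for T-cell and 2.94 for B-cell genes at 6 weeks, and 5.55 and 3.82 initially. Dog 034, labelled B-Cell, had a T-cell median of 5.39 and a B-cell median of 4 at 6 weeks, and 2.86 and 5.57 initially. Dog 036, labelled T-Cell, kept the order of its label but had a B-cell median of 4.17 at 6 weeks against 0.73 initially, and a T-cell median of 4.87 at 6 weeks against 5.78 initially. In 6 of the 15 dogs (024, 027, 028, 029, 030 and 035) the deposited counts and FPKM values under the same gene ID did not rank genes alike (rank correlation across genes 0.0868 to 0.117 in their 12 libraries), while in the other 9 dogs they did (0.880 to 0.983). The comparisons below use the FPKM values alone, and the values within each of these sets of dogs are given for the main gene groups. The study sorted its 15 dogs by expression into a cluster of 6 dogs and a cluster of 9. Its cluster of 6 held the same mix of immunophenotype labels as the 6 dogs named here. Whether the clusters are these same sets of dogs was not tested.

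No gene passed the test of change over the 15 pairs. With limma on the paired values, 0 of 14257 genes had an adjusted p below 0.05 in either direction (0% called), and the lowest adjusted p was 0.163. At an unadjusted p below 0.05, 1147 genes (8.05%) were higher and 676 genes (4.74%) lower at 6 weeks. An exact sign test, which ignores the size of a change, also passed 0 genes after adjustment (smallest adjusted p 0.174) and 1005 before it. Values of the 2 timepoints overlapped for all 14257 genes (0% not overlapping). The split between higher and lower genes moved with the scaling, to 1582 and 366 after upper quartile scaling and to 661 and 784 after quantile normalization, with 0 genes passing after adjustment in both. Mean differences were positive for 48.6% of genes and negative for 51.4%, and the median over all genes was −0.01. Testing the genes of lower FPKM as well changed the count of calls, as given with the weakly expressed genes below.

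The direction of change was shared by at least 12 of 15 dogs for a small part of the genes, of which 652 (4.57% of genes tested) were higher and 334 (2.34%) lower at 6 weeks. In all, 3 genes were higher in all 15 dogs and 0 genes lower in all 15. They were NDNF, which encodes a secreted neurotrophic factor, TMEM236, a membrane protein gene, and ENSCAFG00000016861. FPKM of NDNF were 0.0316 to 15.3 (median 0.408) in six-week libraries and 0 to 8.15 (median 0.125) in initial libraries. FPKM of TMEM236 were 0.399 to 3.18 (median 1.03) in six-week libraries and 0.205 to 1.65 (median 0.719) in initial libraries. FPKM of ENSCAFG00000016861 were 0.374 to 3.54 (median 0.906) in six-week libraries and 0.211 to 2.46 (median 0.478) in initial libraries. All 3 genes are weakly expressed, and their initial and six-week ranges overlap. Their initial means of 0.951, 0.770 and 0.704 FPKM, in that order, were below the filter of 1 FPKM. They passed the filter only through their six-week libraries, so their shared direction is not independent of it.

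Gene symbols were at hand for 3923 of the tested genes. They come from the study's own result tables, which list the genes with the smallest p-values of several comparisons, some of them between these same libraries. A named gene is therefore more likely to have changed than an unnamed one. At an unadjusted p below 0.05, 363 genes with a symbol (9.25%) were higher and 419 (10.7%) lower, and counts in gene lists are read against these shares.

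Genes of cell division had lower mean levels at 6 weeks, although none passed the adjusted test. All 30 tested mitosis genes had a negative mean difference (61.7% of genes with a symbol did), with a median of −0.46 on the log2 scale against −0.06 for all genes with a symbol, and 24 of them had an unadjusted p below 0.05. TOP2A encodes the topoisomerase II that doxorubicin traps. Its FPKM were 25.7 to 371 (median 140) in six-week libraries and 38.9 to 414 (median 232) in initial libraries. It was lower at 6 weeks in 12 dogs, with a mean difference of −0.68 ± 0.22 (SE; limma adjusted p = 0.298). The ranges overlapped almost fully, and the largest decreases were in dogs 025, 034, 031/032 and 036. MKI67, the marker of cycling cells used in pathology, had FPKM of 16 to 165 (median 66.5) in six-week libraries and 45.6 to 212 (median 97.1) in initial libraries. It was lower in 9 dogs and higher in 6. CENPF, which binds kinetochores, had a mean difference of −0.65 ± 0.20 (SE), and BUB1B, a spindle checkpoint kinase, one of −0.68 ± 0.23 (SE).

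DNA replication and DNA repair genes went the same way. All 25 tested replication genes had negative mean differences (median −0.39), 19 of them at an unadjusted p below 0.05. PCNA, the sliding clamp of DNA polymerases, had FPKM of 75.5 to 356 (median 187) in six-week libraries and 108 to 381 (median 248) in initial libraries, and was lower in 12 dogs (mean difference −0.45 ± 0.14 SE, limma adjusted p = 0.286). MCM6 and MCM3, subunits of the replicative helicase, and RRM1, which makes deoxynucleotides, had mean differences of −0.45, −0.43 and −0.36. All 23 tested repair genes had negative mean differences (median −0.39), 17 at an unadjusted p below 0.05. PARP1, which senses DNA breaks, had a mean difference of −0.42 ± 0.18 (SE), and RAD51AP1, a homologous recombination factor, one of −0.48 ± 0.16 (SE). Both were lower in most dogs, 9 and 11 of 15.

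**Figure D1:**
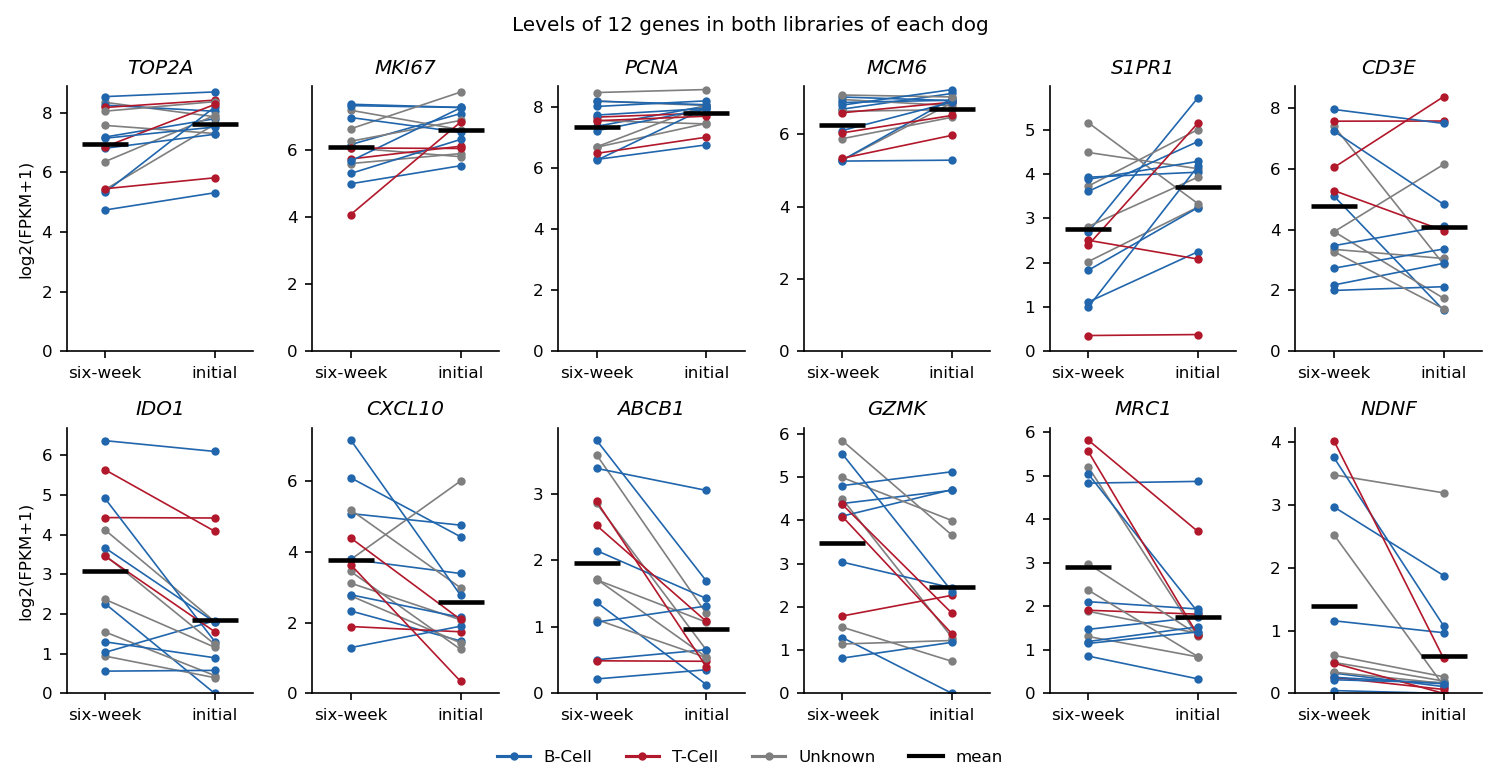
Levels of 12 genes as log2(FPKM+1), with the six-week library left and the initial library right of each panel, a line per dog colored by immunophenotype label and black bars for the means over 15 dogs. TOP2A, PCNA and MCM6 are lower at 6 weeks by most in a few dogs and nearly level in others, and in all panels the ranges of the timepoints overlap.

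The dogs did not share this decrease equally. The median difference of the mitosis genes was −2.15 in dog 034 and 0.46 in dog 024, and it was negative in 11 dogs and positive in 4. Among the negative ones, dog 033 had −0.64 for mitosis genes but also a median of −0.41 over all genes tested. In the 9 dogs whose counts and FPKM ranked alike, the list's median was −0.74 and 26 of 30 genes were lower at an unadjusted p below 0.05. In the other 6 dogs the median was −0.03 and 0 of 30 passed that level. Replication and repair genes had medians of −0.66 and −0.66 in the 9 dogs, and of 0.02 and 0.03 in the 6 dogs. Whether the changes differ between these sets of dogs was not tested. The count of mitosis genes at an unadjusted p below 0.05 was 10 without the 3 dogs of shallowest six-week libraries (025, 030 and 036), 3 without the 3 dogs with the largest summed FPKM at 6 weeks (025, 033 and 036), 18 without dogs 029, 036 and 038, and 12 without the dogs whose markers went against the label (029, 034 and 038). The last setting gave 9 of 25 replication and 7 of 23 repair genes. Leaving out dog 025 or dog 034 alone gave 15 each, and for the repair genes leaving out dog 025 gave 10 of 23. With array quality weights, which count variable libraries less, 1 of 30 mitosis, 4 of 25 replication and 3 of 23 repair genes had an unadjusted p below 0.05.

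Genes of ribosome production had smaller mean differences. NPM1, a nucleolar chaperone, had FPKM of 441 to 2458 (median 1409) in six-week libraries and 538 to 4078 (median 1454) in initial libraries, and was the only 1 of 13 genes of MYC and ribosome biogenesis with an unadjusted p below 0.05 (mean difference −0.45 ± 0.18 SE). NCL and NOLC1, nucleolar proteins, and NOP58, a core protein of small nucleolar RNPs, had mean differences of −0.10, −0.24 and −0.20. The list went opposite ways in the sets of dogs, with a median of −0.46 and 6 of 13 genes lower at an unadjusted p below 0.05 in the 9 dogs with matching counts, and a median of 0.19 and 4 of 13 higher in the other 6. None of the 24 tested cytosolic ribosomal protein genes (median −0.16) or of the 8 mitochondrially encoded genes (median −0.10) reached an unadjusted p below 0.05. Without dog 036, however, 10 of 24 ribosomal protein genes were lower at that level (list median −0.28), and 5 of 24 after quantile normalization.

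Genes of T cells and cytotoxic cells were higher on average, unevenly across dogs. All 13 tested T-cell genes had positive mean differences (median 0.70), and 7 had an unadjusted p below 0.05. CD3E, a chain of the T-cell receptor complex, had FPKM of 3.00 to 245 (median 14.3) in six-week libraries and 1.56 to 328 (median 9.28) in initial libraries. It was higher in 8 dogs and lower in 7, so that its mean difference of 0.68 ± 0.46 (SE) did not stand out from the spread between dogs. LCK, the kinase at the T-cell receptor, was higher in 12 dogs (0.70 ± 0.31 SE). All 9 cytotoxic and NK-cell genes had positive mean differences (median 0.66), 8 at an unadjusted p below 0.05. GZMK, a granzyme, had FPKM of 0.761 to 56.2 (median 16.1) in six-week libraries and 0 to 33.8 (median 3.81) in initial libraries. CTSW, a protease of cytotoxic cells, was higher in 11 dogs with a mean difference of 0.76 ± 0.24 (SE, limma adjusted p = 0.288).

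The T-cell median per dog spanned 3.95 in dog 025 to −1.33 in dog 036. It was above 1 in dogs 003, 025, 026, 031/032, 034, 035 and 038. In dogs 025 and 034 the T-cell median reached 5.53 and 5.39 at 6 weeks, close to the 5.67 of dog 029. In the 9 dogs with matching counts the T-cell list had a median difference of 0.94 and the cytotoxic list one of 1.02, against 0.21 and 0.12 in the other 6 dogs. Without dogs 029, 036 and 038, 10 of 13 T-cell genes had an unadjusted p below 0.05, but without dogs 029, 034 and 038 it was 0 of 13 T-cell and 4 of 9 cytotoxic genes. For T-cell genes, leaving out 1 dog gave 3 (003 or 034), 4 (025 or 038) or 11 (036), and 5 to 8 for any other dog.

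B-cell genes had small negative mean differences. FPKM of PAX5, a transcription factor of B cells, were 1.07 to 42.9 (median 16.4) in six-week libraries and 0.291 to 62.8 (median 25.7) in initial libraries, lower in 10 dogs. CD22, a B-cell receptor co-receptor, and POU2AF1, a B-cell transcription coactivator, were lower in 12 dogs each, with mean differences of −0.26 and −0.08. None of the 4 B-cell genes reached an unadjusted p below 0.05, and the list's median was −0.22. Without dog 036 alone, 3 of 4 reached it and the list's median was −0.44, and with array quality weights 3 of 4 did. The median was −0.06 in the 9 dogs with matching counts and −0.38 in the other 6. In dog 036 the B-cell median was 3.37 higher at 6 weeks. All 6 tested plasma cell genes had positive mean differences, with a list median of 0.39 (0.63 in the 9 dogs with matching counts and 0.02 in the other 6). Among them XBP1, a transcription factor of secretory cells, had the highest FPKM, of 22.7 to 471 (median 38.3) in six-week libraries and 23.5 to 324 (median 35.8) in initial libraries. It was lower in 10 dogs, although its mean difference was 0.28 ± 0.26 (SE). In all, 2 of the 6 genes, IRF4 and PRDM1, transcription factors of plasma cells, were higher at an unadjusted p below 0.05, and 0 of 6 without dog 025, 036 or 038 and 1 without dog 030.

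Macrophage genes were also higher on average, with 6 of 11 at an unadjusted p below 0.05 (list median 0.64), 1 with array quality weights and 3 without dogs 029, 034 and 038. The list median was 1.14 in the 9 dogs with matching counts and 0.08 in the other 6. C1QB, a chain of complement C1q, had FPKM of 1.25 to 144 (median 14.7) in six-week libraries and 1.73 to 34.5 (median 9.10) in initial libraries, and was higher in 9 dogs. APOE and CYBB, which macrophages express strongly, had mean differences of −0.09 and −0.14. MRC1, the mannose receptor, was chosen after its values were seen. Its FPKM were 32.0 to 55.6 at 6 weeks in dogs 034, 025, 036 and 038, and dog 029 had 27.5 at 6 weeks and 28.3 initially, the highest initial value. The macrophage median was 3.12 higher in dog 025 and 0.66 lower in dog 003 at 6 weeks. Summed FPKM of the 11 macrophage genes were 51.2 to 726 (median 225) in six-week libraries and 34.8 to 412 (median 240) in initial libraries. Neutrophil genes (2 of 5 higher, 1 lower) and endothelial and stromal genes (3 of 8 higher) also had members at an unadjusted p below 0.05, and the stromal count was 1 without dog 025, 034, 036 or 038. MMP8, among the 2 higher neutrophil genes, had an initial mean of 0.841 FPKM and passed the filter only through its six-week libraries. The count of higher neutrophil genes was 0 without dog 025, 030, 034, 035 or 038, 3 without dog 029 and 1 without dog 003, 024, 026, 027, 031/032 or 033. In the 6 dogs with unmatched counts, 0 macrophage, neutrophil or stromal genes had an unadjusted p below 0.05. Whether cells of these types have a part in the lower share of division genes was not tested.

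**Figure D2:**
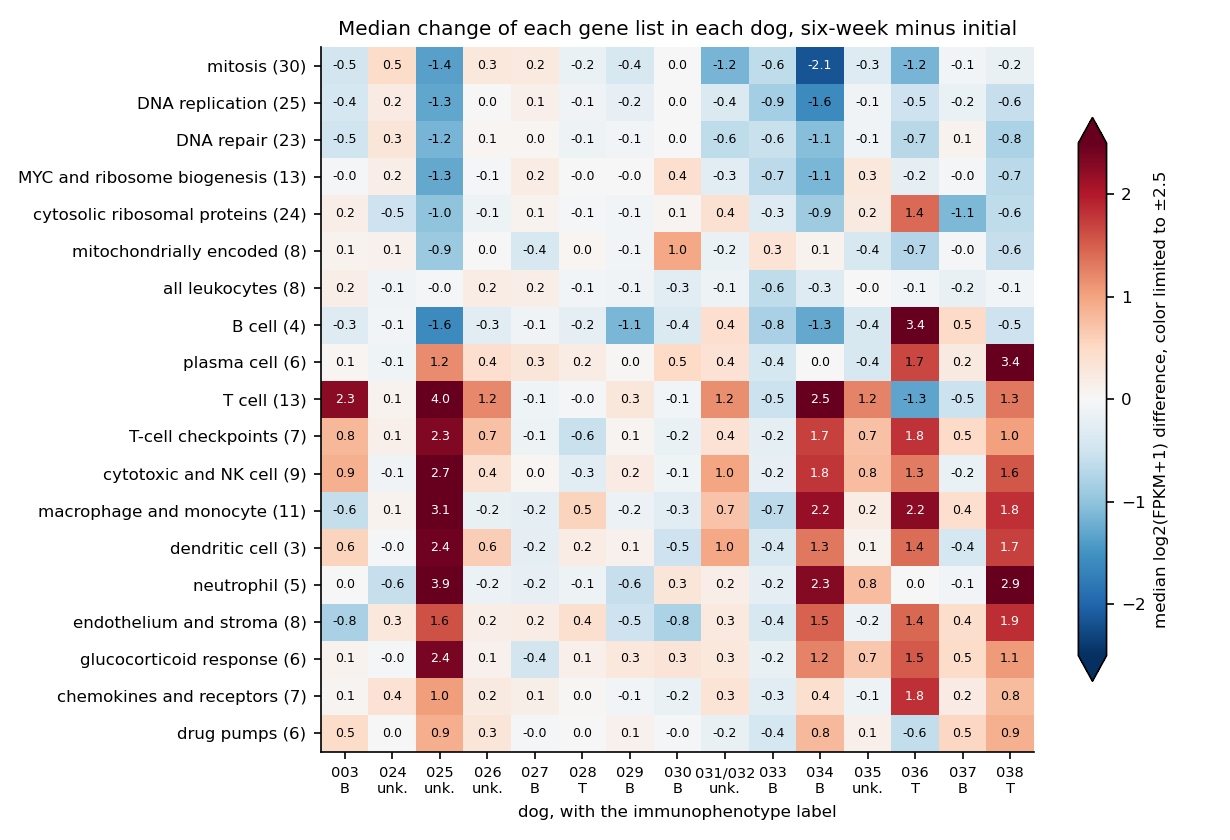
Median difference in log2(FPKM+1), six-week minus initial, of the tested members of each gene list (rows, number of members in brackets) in each dog (columns, with the immunophenotype label). Dogs 025 and 034 combine large negative values for mitosis and DNA replication with large positive values for T-cell and macrophage genes, and dogs 024, 027 and 028 stay near 0 in most rows.

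Genes that bear on the drugs of CHOP were compared next. ABCB1 encodes P-glycoprotein, the pump that exports doxorubicin and vincristine. Its FPKM were 0.163 to 13 (median 2.29) in six-week libraries and 0.0960 to 7.28 (median 0.576) in initial libraries. It was higher in 12 of 15 dogs with a mean difference of 0.98 ± 0.23 (SE, limma adjusted p = 0.185). The largest six-week values were in dogs 034, 024 and 029, and the 3 dogs without a higher value were 033, 037 and 027. ABCG2, another drug pump, had a mean difference of 0.31 ± 0.14 (SE), and ABCC3, ABCC5, ABCC10 and ABCA3 had an unadjusted p of 0.267 or more. The median of the 6 pump genes was 0.17 over all dogs, 0.34 in the 9 dogs with matching counts and 0.004 in the other 6. In those other 6 dogs, 0 of 6 pump genes had an unadjusted p below 0.05. Of 6 tested glucocorticoid-response genes, 4 were higher at an unadjusted p below 0.05 (list median 0.41), 2 without dog 025 or dog 038, 2 after quantile normalization, and 0 with array quality weights or without dogs 029, 034 and 038. The list median was 0.68 in the 9 dogs with matching counts and 0.03 in the other 6. TSC22D3, also known as GILZ, was higher in 12 dogs (0.58 ± 0.22 SE), whereas FKBP5, a chaperone induced by glucocorticoids, was higher in 8 dogs and lower in 7 (0.07 ± 0.24 SE). NR3C1, the glucocorticoid receptor, had a mean difference of −0.01 ± 0.17 (SE). Of 7 p53 target genes, CDKN1A was higher and RRM2B lower at an unadjusted p below 0.05, both chosen after their values were seen.

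Several genes of chemokines and immune checkpoints had higher mean levels at 6 weeks. The following genes were chosen after their values were seen, as those with a symbol, the largest mean difference and at least 12 dogs in 1 direction. IDO1, an enzyme that breaks down tryptophan and is induced by interferon-gamma, had FPKM of 0.476 to 81.5 (median 9.98) in six-week libraries and 0 to 67.3 (median 1.47) in initial libraries. It was higher in 13 dogs, by 1.23 ± 0.28 (SE, limma adjusted p = 0.185), and dogs 028 and 029 were high at both timepoints. CXCL10, a chemokine for activated T cells, had FPKM of 1.45 to 141 (median 11.4) in six-week libraries and 0.267 to 62.8 (median 3.25) in initial libraries, higher in 13 dogs by 1.20 ± 0.37 (SE). RGS1, a regulator of G protein signaling in lymphocytes, TNIK, a kinase of Wnt signaling, and PRKCH, a protein kinase C, had mean differences of 1.05, 1.10 and 0.88. HSD17B14, a hydroxysteroid dehydrogenase, IL13RA2, a decoy receptor of interleukin-13, DLA-79, a canine MHC class I gene, BASP1 and ITGA1, an integrin chain, had mean differences between 0.81 and 1.03. HSD17B14 had an initial mean of 0.963 FPKM and passed the filter only through its six-week libraries. Of the 7 tested T-cell checkpoint genes, 4 were higher at an unadjusted p below 0.05. Of the 7 chemokine and receptor genes, 4 were higher and 1 lower (3 lower without dog 036). Checkpoint genes had a median of 0.87 in the 9 dogs with matching counts and 0.03 in the other 6, and chemokine genes one of 0.62 and 0.14.

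Genes with the most negative mean differences were chosen in the same way. S1PR1, the receptor by which lymphocytes leave lymph nodes, had FPKM of 0.282 to 34.8 (median 5.45) in six-week libraries and 0.302 to 51.7 (median 15.5) in initial libraries, lower in 12 dogs by a mean of −0.95 ± 0.32 (SE). The ranges of the timepoints overlap, with dog 028 lowest at both. CCNE2 and CDK2, the cyclin and kinase of S phase entry, had mean differences of −0.63 and −0.58, each lower in 13 dogs. OCA2, a melanosome transporter gene, LY6E, PHEX, MCF2L2, DIAPH3, STRBP and GGA2 had values between −1.08 and −0.53.

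Most genes varied more between dogs at 6 weeks. The SD of log2(FPKM+1) between libraries was larger at 6 weeks in 67.8% of genes (73.6% of those with a symbol), with a median SD of 0.562 at 6 weeks and 0.501 initially. A Pitman-Morgan test of paired variances called 14 genes with a larger spread (0.0982% of 14252) and 7 with a smaller spread (0.0491%) after adjustment, against 1191 (8.36%) and 211 (1.48%) at an unadjusted p below 0.05 (larger in 9.94% of genes with a symbol). The counts after adjustment rested on single dogs, as 79 genes had a larger spread without dog 029 and 4 without dog 033, and 32 a smaller spread without dog 028 and 2 without dog 036. The 5 genes listed at 0 throughout a timepoint were not tested. SRSF7, a splicing factor, was the called gene that had a symbol and a mean FPKM above 5. Its FPKM were 17.8 to 51.1 (median 27.0) in six-week libraries and 26.5 to 38.0 (median 31.4) in initial libraries, an SD of 0.478 against 0.137 on the log2 scale (adjusted p = 0.0410). The highest values at 6 weeks were in dogs 035, 003 and 026 and the lowest in dogs 033, 025 and 038. The mean difference of SRSF7 was −0.13 ± 0.12 (SE), higher in 7 dogs and lower in 8. At lower FPKM, ERCC1, a DNA repair nuclease subunit, had an SD of 0.611 at 6 weeks and 0.202 initially, and DDC and IGF2BP2 had a smaller SD at 6 weeks. These 3 were chosen after their values were seen. DDC and IGF2BP2 had six-week means of 0.580 and 0.793 FPKM and passed the filter only through their initial libraries. Their initial means of 2.40 and 3.76 FPKM were far above their initial medians of 0.0754 and 0.267 FPKM.

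The SD was larger at 6 weeks for all 30 mitosis genes (median SD ratio 1.33), all 25 replication genes (1.36) and all 23 repair genes (1.39). The median ratio was 1.12 for all genes tested and 1.17 for those with a symbol, of which 73.6% had a larger SD. At an unadjusted spread p below 0.05 there were 2 mitosis, 3 replication and 3 repair genes, near the 9.94% of genes with a symbol. After adjustment 0 of them passed. Macrophage genes had a median ratio of 1.59, B-cell genes of 0.77 and T-cell genes of 0.95. For the whole profile, the root mean square distance of a library from the mean of the other 14 of its timepoint was 0.756 ± 0.107 at 6 weeks and 0.682 ± 0.192 initially (SD, n = 15 each). It was larger at 6 weeks in 11 of 15 dogs, by a mean of 0.0740, which did not reach the threshold (p = 0.0873, exact permutation test over 32768 sign choices, two-sided). The initial library of dog 036 was the farthest of all 30, at 1.20. Its paired difference of −0.321 was also the most negative. Without that dog, singled out after its distance was seen, the difference was 0.110 (exact permutation p = 0.00916). In that setting 77.3% of genes had a larger SD at 6 weeks. Leaving out any other single dog did not reach the threshold (exact permutation p = 0.0765 to 0.168).

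**Figure D3:**
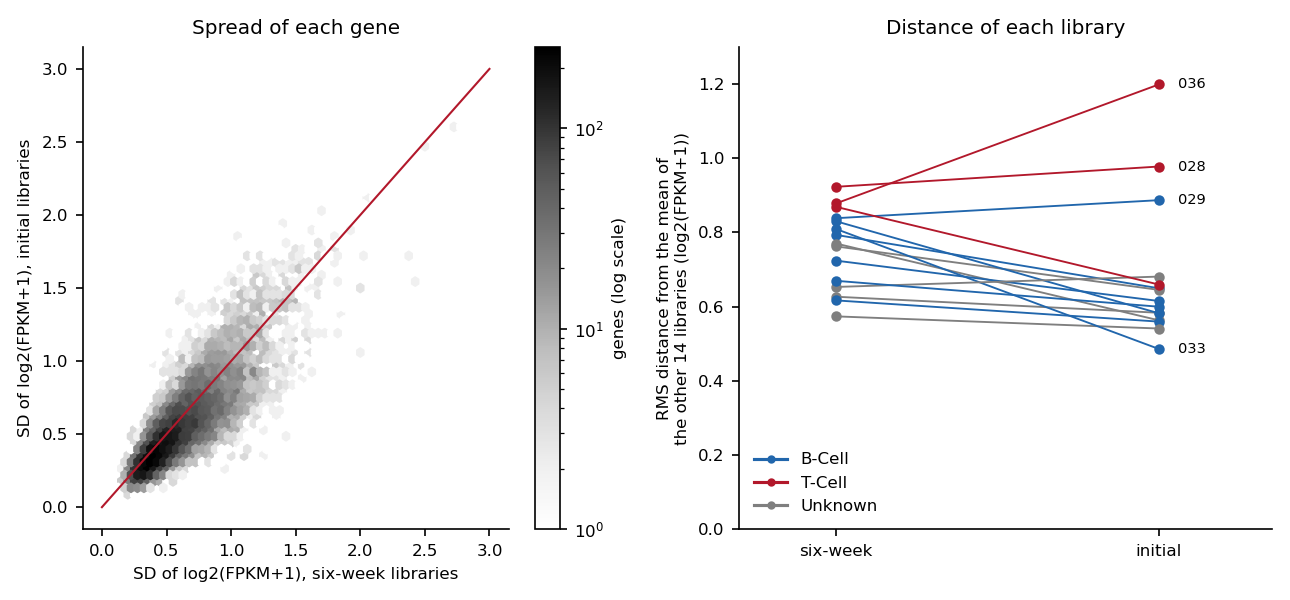
Left, SD of log2(FPKM+1) between libraries for each gene, six-week on the horizontal and initial on the vertical axis, with shading by the number of genes and a line of equal SD; right, distance of each library from the mean of the other 14 of its timepoint, six-week left and initial right, a line per dog. More genes lie on the six-week side of the line, and dog 036 has the largest decrease in distance at 6 weeks and dog 033 the largest increase.

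The size of change varied between dogs. The root mean square log2 difference over 14257 genes was 0.355 in dog 027 and 1.40 in dog 036, with a median of 0.551. Genes that differed by more than 1 on the log2 scale made up 1.63% of genes in dog 027 and 40.7% in dog 036. Dogs 025, 038, 034 and 037 also had large differences, of 1.12, 0.978, 0.940 and 0.809. In these dogs, in dog 036 and in the pair 031A and 032B, the six-week library did not correlate best with the initial library of its own pair. The 6 dogs whose counts and FPKM did not rank alike had 0.355 to 0.551, and the 9 others 0.440 to 1.40.

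Weakly expressed genes as a whole were higher at 6 weeks. The summed FPKM of the genes with a mean FPKM of 1 or less was 1614 to 18511 (median 7689) in six-week libraries and 1479 to 10178 (median 3646) in initial libraries. It was higher at 6 weeks in 15 of 15 dogs (mean log2 ratio 0.81 ± 0.61 SD, n = 15; exact permutation test p = 6.1e-05, the smallest that 15 pairs can give, adjusted p = 0.000427). As a share of all FPKM it was 0.129% to 1.82% (median 0.606%) in six-week libraries and 0.175% to 0.921% (median 0.351%) in initial libraries, higher in 14 dogs and lower in dog 033 (adjusted p = 0.00310, exact permutation test). The number of genes above 1 FPKM was 11591 to 21297 (median 14509) in six-week libraries and 11808 to 16355 (median 12633) in initial libraries, higher in 14 dogs (adjusted p = 0.00310, exact permutation test). Total counts were lower at 6 weeks in 12 dogs, and the part of depth in these differences was not tested.

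**Figure D4:**
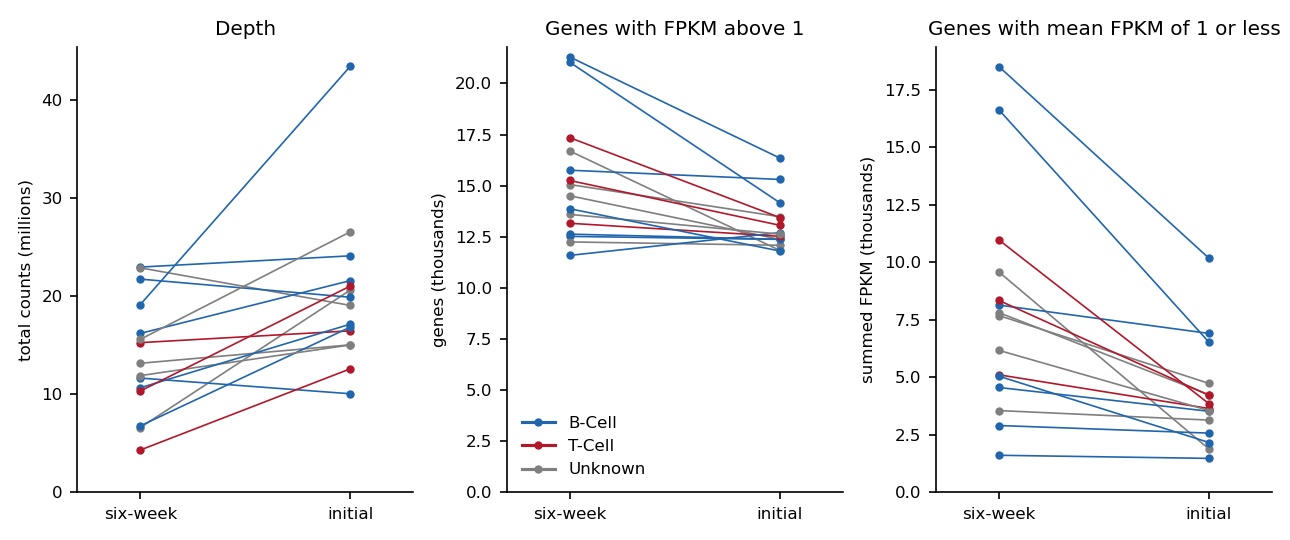
Total counts, number of genes above 1 FPKM and summed FPKM of the genes with a mean FPKM of 1 or less for each library, six-week left and initial right, with a line per dog colored by immunophenotype label. The right panel has all 15 lines lower at the initial timepoint, and the left has most lines higher there.

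The direction of change went with the level of expression. Of genes with a mean FPKM above 0.1 and up to 1, 22.9% were higher in at least 12 dogs and 0.0209% lower. Of genes with a mean FPKM above 20, 0.641% were higher and 4.64% lower. Within the tested genes, 924 of 1 to 5 FPKM were higher and 56 lower at an unadjusted p below 0.05, against 50 higher and 411 lower above 20 FPKM. With all genes of the matrix tested, 2934 genes were higher (9.17% of 32008) and 48 lower (0.15%) at an adjusted p below 0.05, of which 2713 and 3 had a mean FPKM of 0.1 to 1. This lets the adjusted p of IDO1, ABCB1, DLA-79, PRKCH and TMEM236 pass at 0.0321 to 0.0435, and likewise those of CCNE2, DIAPH3 and STRBP at 0.0419 to 0.0493.

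**Figure D5:**
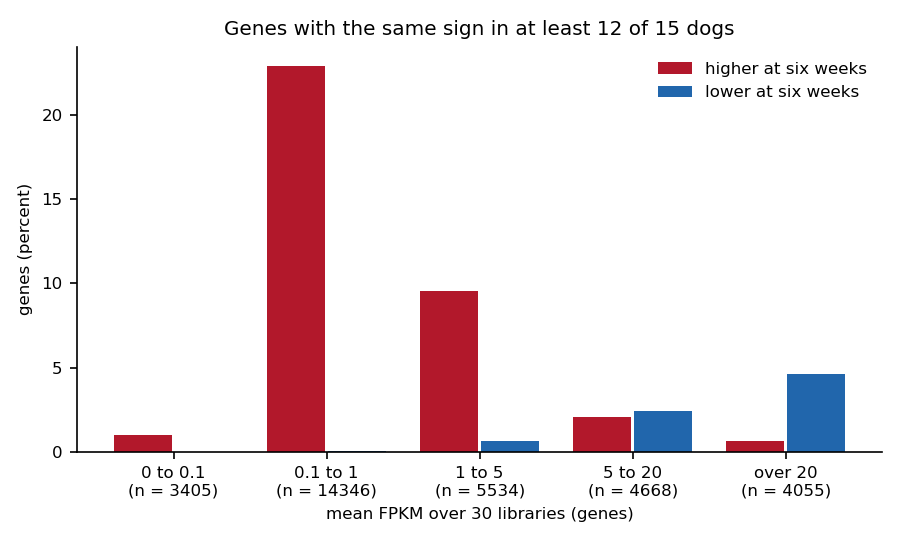
Share of genes, in percent, with the same sign in at least 12 of 15 dogs, by mean FPKM over the 30 libraries; red bars are higher and blue bars lower at 6 weeks, and n is the number of genes. Most consistent increases lie below 5 FPKM and most consistent decreases above 20 FPKM.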

How the data were processed

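RNA of lymph node aspirates was measured in 30 libraries of 15 dogs. The submitters' processing notes name HISAT2 2.1.0, StringTie 1.3.3 and the CanFam3.1 build. Deposited FPKM values, which the authors scaled by transcript length and depth, were analysed; the deposited counts were used for total counts and for their rank correlation with FPKM. Genes with a mean FPKM above 1 were tested on log2(FPKM+1) with limma 3.58.1 in R 4.3.3, the dog as a block, two-sided, Benjamini-Hochberg adjusted. A difference on this scale understates the change of low genes. Spread was tested with the Pitman-Morgan test, signs with exact binomial tests and library values with exact permutation tests. Samples of a dog come from the same animal, so numbers pair them, except 031A and 032B, paired by elimination. The deviations of a dog's libraries from their timepoint means had a median correlation of 0.601 (lowest −0.114, 14 of 15 above 0.1, 0.344 for 031A and 032B). Of the 15 six-week libraries, 9 correlated best with their own partner, and 032B was not among these 9. The rule for named genes asked for an adjusted p below 0.05 in the limma fit, which none reached. The genes given as those with the largest positive or most negative mean differences meet the rest of it. MRC1, CDKN1A, RRM2B, ERCC1, DDC and IGF2BP2 were chosen outside this rule after their values were seen. Lists without genes that pass are described by their members of highest FPKM. Members and gene lists were chosen with earlier results of these data known. The scripts were tested on simulated data. Python 3.11.15 with matplotlib 3.10.9 drew the figures. Alternatives tried were pseudocount, filters, scalings, array weights, other tests, no block and leaving out dogs. Results for a few of the genes that meet these rules are not reported here.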

Additional observations from a re-analysis of the deposited data

How the results depend on the processing

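Of 1727 values recomputed under alternative settings, 1670 kept their direction and their side of the threshold, and none that had passed a test turned round. Without the filter on low values, 2934 genes were higher and 48 lower at 6 weeks at an adjusted p below 0.05, 1348 passed the sign test, 4239 had a larger and 244 a smaller spread, and the difference in library distance was 0.0908. Under the other settings, 0 genes were lower and 0 higher, except 1 higher (ENSCAFG00000029459) when dog 036 was left out. The mean difference without the replicate block passed 0 genes in each direction, with 407 higher and 129 lower at an unadjusted p below 0.05. The array quality weights gave 1052 and 246, and a minimum mean of 5 FPKM gave 226 and 664.

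Genes with a larger spread, 14 with all dogs, were 121 with a pseudocount of 0.1, 8 with a minimum of 5 FPKM, 29 after quantile normalization, 9 without the pair 031A and 032B, 3 without the dogs labelled T-Cell, 0 in the dogs labelled B-Cell alone and 2 with a Spearman correlation. Genes with a smaller spread, 7 with all dogs, were 25, 2, 19, 6, 1, 1 and 1 in the same settings. Alternatives chosen after seeing the data gave 8 larger and 2 smaller without dogs 025, 030 and 036, 47 and 1 without dogs 029, 036 and 038, 50 and 10 without dogs 029, 034 and 038, 4 and 2 without dogs 025, 033 and 036, 16 and 15 in the 9 dogs with matching counts, and 2 and 2 in the other 6. Leaving out each dog in turn gave 0 to 1 higher genes, 4 to 79 genes with a larger spread, 2 to 32 with a smaller spread, and a distance difference of 0.0547 to 0.110. The distance difference, 0.0740 with all dogs, passed at 0.0908 without the filter on low values, 0.0824 after quantile normalization and 0.120 without the dogs labelled T-Cell. It passed at 0.0945 without dogs 025, 030 and 036, 0.114 without dogs 029, 036 and 038, and 0.0728 without dogs 025, 033 and 036. These exclusions all took out dog 036, the only dog whose removal alone gave a pass. The difference did not pass without dogs 029, 034 and 038 (0.0452), in the 9 dogs with matching counts (0.121) or in the other 6 (0.0110). The cause of these shifts was not tested beyond the smaller number of dogs or larger number of genes that the settings use. The FPKM values keep no depth, low genes in shallow libraries are measured with less precision, and missing the threshold does not show that a level stayed the same.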

Other observations

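Some gene groups belong to no comparison of the report. Of 3 tested dendritic cell genes, all had positive mean differences (median 0.55 over 15 dogs, 0.94 in the 9 dogs with matching counts and −0.14 in the other 6), and FSCN1, which bundles actin in mature dendritic cells, had 11.2 ± 7.55 FPKM in six-week libraries and 8.36 ± 9.19 FPKM in initial libraries (SD, n = 15 each). The level was higher at 6 weeks in 12 dogs. The platelet gene PPBP was higher in 13 dogs by a mean of 0.41 ± 0.18 (SE) on the log2 scale, with six-week FPKM of 0.0768 to 20.8 and initial FPKM of 0 to 3.93. Its initial mean of 0.820 FPKM was below the filter, which it passed only through its six-week libraries. DSP, a desmosome gene of skin, was at 57.5 FPKM in the initial library of dog 036 and at 5.23 FPKM or less in the other initial libraries. Of 25 listed interferon-response genes only 3 were tested, so they do not describe the response as a whole. These genes, IRF1, TRIM22 and DDX58, had mean differences of 0.27, 0.16 and −0.32, none at an unadjusted p below 0.05. After upper quartile scaling or quantile normalization, 1 of the 3 was higher at that level.

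CYTIP, an adaptor protein of lymphocytes, was the exception among the 8 leukocyte genes. Its FPKM were 2.03 to 94.5 (median 18) in six-week libraries and 1.62 to 81.9 (median 11.8) in initial libraries, higher in 13 dogs by 0.72 ± 0.21 (SE; limma adjusted p = 0.271). The other 7 leukocyte genes had no unadjusted p below 0.05. TUBB6, a tubulin gene and so a relative of the vincristine target, had a mean difference of 0.27 ± 0.17 (SE).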
